A study of Mus musculus with 30 samples.

Results

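Sphingolipid metabolism was followed through 10 genes in mouse liver, *Smpdl3b*, *Smpdl3a*, *Smpd1*, *Smpd3*, *Sptlc1*, *Sptlc2*, *Cers2*, *Cers5*, *Cers6* and *Degs1*, each found by its symbol among the 55450 genes of the count table. All 10 had enough counts to be tested in every comparison. The livers came from 30 male mice in 3 experiments, with 1 stranded poly(A) library per mouse. Each experiment held 5 Cre- *Cebpa* fl/fl mice and 5 Cre+ mice in which Cre from the albumin promoter deletes floxed *Cebpa* in hepatocytes. All mice carried the floxed allele on a C57BL/6N background and ate HFCFD, a steatohepatitis-inducing diet rich in fat, cholesterol and fructose. In HFCFD2W the diet lasted 2 weeks and the knockout mice were *Cebpa* ΔHep, with constitutive deletion. In HFCFD8W+T10D and HFCFD12W+T10W they were *Cebpa* ΔHep,ERT2, in which tamoxifen starts the deletion. The labels of both genotypes give tamoxifen for 10 days beside 8 weeks of diet in the first and for 10 weeks beside 12 weeks of diet in the second, which by the study's methods makes 22 weeks of diet in all. The labels give no ages. HFCFD2W differs from the others in Cre line, tamoxifen, feeding time and cohort, while HFCFD8W+T10D and HFCFD12W+T10W share the Cre line but not feeding time, time on tamoxifen or cohort, and within each comparison these cannot be told apart.

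Sphingolipids are built in the endoplasmic reticulum. Serine palmitoyltransferase joins serine to a fatty acyl chain, ceramide synthases add a further acyl chain of a length that depends on the isoform, and a desaturase turns dihydroceramide into ceramide. Sphingomyelinases return ceramide from sphingomyelin, and in liver ceramides are known for links to insulin resistance and steatohepatitis.

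Library totals ran from 7996128 to 10257366 expected counts, and 14793 to 17342 genes had a count. Expression is given as CPM, a count relative to the library total after TMM scaling within each experiment. A gene passed at an adjusted p under 0.05 in the quasi-likelihood test of edgeR, adjusted over all genes tested by the Benjamini-Hochberg method, and fold changes compare knockout with *Cebpa* fl/fl mice. *Cebpa* itself fell from 151 ± 15.6 to 4.03 ± 0.762 CPM in HFCFD2W (SD, n = 5 in every group here and below), from 147 ± 13.6 to 17.8 ± 6.27 in HFCFD8W+T10D, and from 129 ± 25.8 to 24.8 ± 2.35 in HFCFD12W+T10W, so that 2.68%, 12.1% and 19.2% of its level was left. The 8 hepatocyte markers summed to 57151 to 144579 CPM over all libraries and were all detected, as a liver label implies. In whole liver, fewer cells of a type and less RNA per cell cannot be told apart.

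*Smpdl3b* differed most between genotypes, and its upstream sequence is printed for that reason beside that of *Sptlc2*, whose rise in HFCFD12W+T10W came with little spread. *Smpdl3b* lies at chr4:132732966-132757252 on the minus strand and *Sptlc2* at chr12:87305058-87388355 on the minus strand (GRCm38, GENCODE M21). The sequences come from RefSeq (GRCm38.p6) and end just before the GENCODE gene start, chr4:132757253-132757421 for *Smpdl3b* and chr12:87388356-87388605 for *Sptlc2*, both on the minus strand, with CCAAT or its reverse complement ATTGG in capitals.
Smpdl3b: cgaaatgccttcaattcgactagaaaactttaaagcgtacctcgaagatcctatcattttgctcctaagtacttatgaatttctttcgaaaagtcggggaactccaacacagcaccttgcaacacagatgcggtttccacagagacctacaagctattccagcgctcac
Sptlc2: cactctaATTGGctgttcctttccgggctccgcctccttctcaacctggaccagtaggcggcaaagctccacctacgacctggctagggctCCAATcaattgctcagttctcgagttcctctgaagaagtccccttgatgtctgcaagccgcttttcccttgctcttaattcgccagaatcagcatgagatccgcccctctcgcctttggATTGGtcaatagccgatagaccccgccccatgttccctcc

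CEBPA, the deleted factor, binds CCAAT/enhancer elements. A search of the 250 bases before the RefSeq start, on both strands, covered 8 members in 9 windows, *Cers2* having 2 starts. *Smpdl3a* and *Smpd3* had no window. The letters TTGCNNAA occurred in 1 of the 8 members, as TTTCGCAA 95 bases before the second start of *Cers2*, against 9.56% of all 32851 windows of this length. CCAAT occurred in 6 of the 8 members against 33.9% of all windows. Both comparisons set members beside windows. The predicted CEBP elements that the study prints for *Spp1* do not hold CCAAT, and it is not read as a CEBPA site here. *Smpdl3b* held CCAAT 66 bases before its RefSeq start, which lies 81 bases inside the GENCODE gene and so outside the stretch printed above. TTGCNNAA and CCAAT do not overlap in any member's window, and a match is a description and not a binding site.

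Of the 10 genes, 1 rose and 2 fell in HFCFD2W, 2 rose in HFCFD8W+T10D, and 5 rose and 3 fell in HFCFD12W+T10W. Over all genes tested the shares that rose were 8.60%, 10.3% and 27.4% in the same order of experiments, and the shares that fell were 8.09%, 6.85% and 23.8%. With a fold change over 2 as well, the members that rose were 1, 2 and 3, against 1.69%, 4.09% and 14.3% of all genes, and none fell, against 1.38%, 2.01% and 3.47%. In HFCFD8W+T10D 0 members fell in edgeR, 0 in DESeq2 and 0 at an unadjusted p under 0.05. The median log2 fold change of the 10 members was -0.09, 0.29 and 0.27, beside 0.01 over all genes in each experiment. The CPM of the genotypes did not overlap for 3, 2 and 6 members, against 12.5%, 11.6% and 37.8% of all genes. *Smpdl3b* was the 1 member that rose in all 3 experiments. It passed the low-count filter in each only through the knockout livers, so these counts of rises include a gene admitted by its rise. On the deposited TPM values, not centred on the library median, the 3 falls of HFCFD12W+T10W did not pass, whereas *Smpdl3a* and *Degs1* passed as higher. On that scale 87.8% of the calls over all genes were higher there, beside 53.5% in edgeR.

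**Figure D1:**
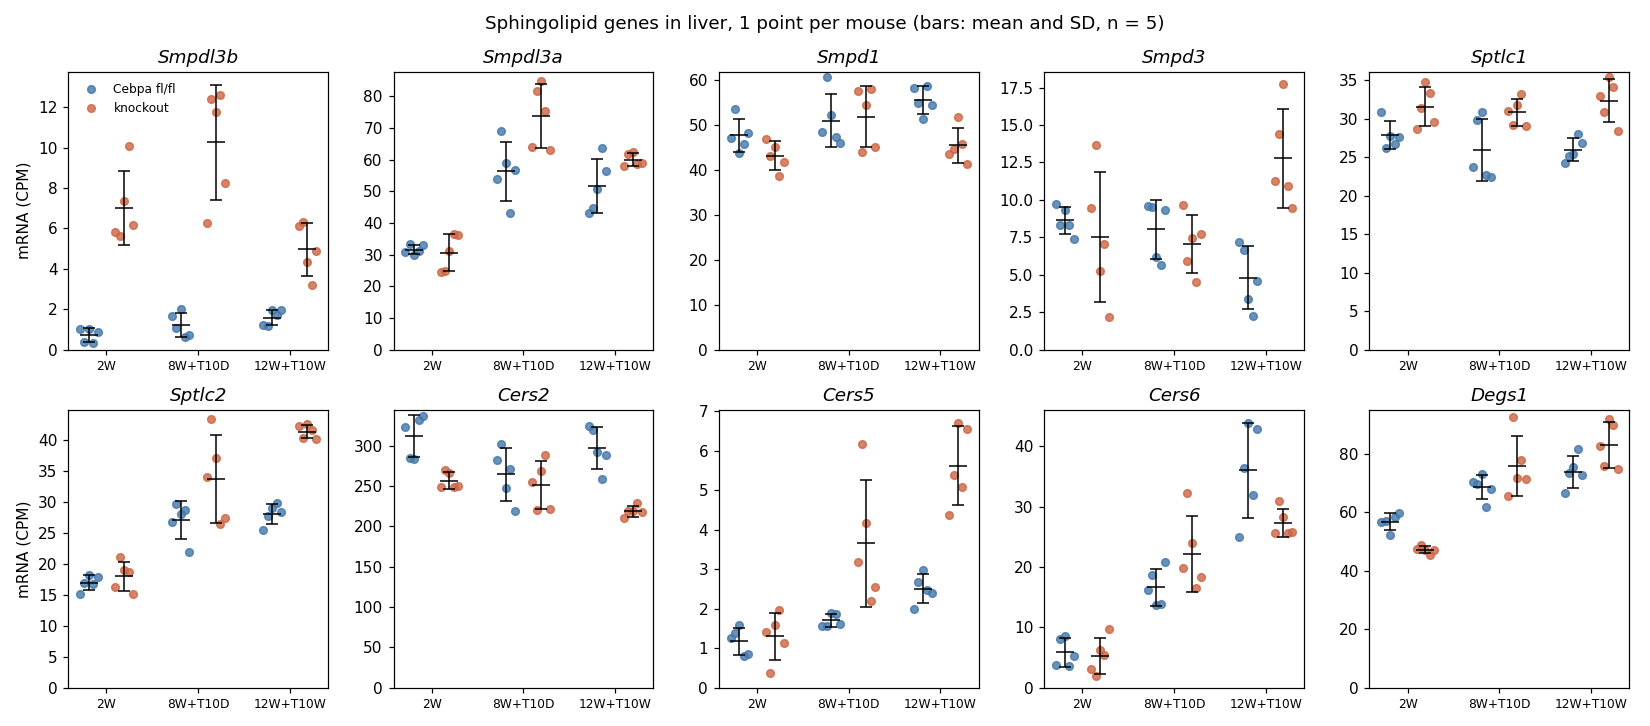
Liver mRNA of the 10 sphingolipid genes in CPM (y axis, starting at 0) in the 3 experiments (x axis, 2W, 8W+T10D and 12W+T10W), with 1 point per mouse, *Cebpa* fl/fl in blue and knockout in orange, and bars for the mean and SD (n = 5). Every knockout mouse lies above every *Cebpa* fl/fl mouse for *Smpdl3b* in all 3 experiments.

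*Smpdl3b* encodes an acid sphingomyelinase-like phosphodiesterase anchored on the cell surface. In HFCFD2W it was at 1.01, 0.378, 0.995, 0.347 and 0.847 CPM in *Cebpa* fl/fl mice and at 5.83, 5.63, 7.38, 10.1 and 6.16 CPM in *Cebpa* ΔHep mice. These *Cebpa* fl/fl livers held only 3 to 10 counts of it and the knockout livers 54 to 92, and the groups were far apart. *Smpdl3b* passed the low-count filter in this and both other experiments only through the knockout livers. It was also called in all 3 without that filter. The rise in HFCFD2W was 9.53-fold, a log2 fold change of 3.25 ± 0.28 (SE) with an adjusted p of 1.38e-05 in edgeR.

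In HFCFD8W+T10D *Smpdl3b* was at 1.67, 1.05, 2.02, 0.625 and 0.709 CPM in *Cebpa* fl/fl mice and at 6.28, 12.4, 11.8, 12.6 and 8.23 CPM in *Cebpa* ΔHep,ERT2 mice, which made the log2 fold change 3.09 ± 0.31 (SE, adjusted p = 5.47e-05 in edgeR). In HFCFD12W+T10W the values were 1.2, 1.15, 1.95, 1.69 and 1.94 CPM against 6.10, 6.34, 4.34, 3.18 and 4.87 CPM, a log2 fold change of 1.63 ± 0.24 (SE, adjusted p = 0.000114 in edgeR). The lowest knockout mouse was above the highest *Cebpa* fl/fl mouse in both experiments. *Cebpa* fl/fl livers held 6 to 17 counts in HFCFD8W+T10D and 9 to 17 in HFCFD12W+T10W, too few to pass the low-count filter alone. An exact two-sided permutation test of mean log2 CPM over all arrangements of the mice gave p = 0.00794 in each of the 3 experiments, the smallest that 5 against 5 mice can give. Groups that do not overlap always give this value, so it adds nothing to their separation. Leaving out any 1 mouse kept the log2 fold change between 3.08 and 3.42, between 2.90 and 3.34, and between 1.52 and 1.75.

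The rise of *Smpdl3b* was smaller in HFCFD12W+T10W than in both other experiments. In 1 edgeR fit of all 30 libraries, the log2 genotype effect in HFCFD12W+T10W was lower than in HFCFD2W by 1.67 ± 0.45 (SE, difference of -1.67, adjusted p = 0.00557), where 30.7% of genes differed, and lower than in HFCFD8W+T10D by 1.48 ± 0.42 (difference of -1.48, adjusted p = 0.0218), where 10.5% differed. The second of these differences passed in 26 of 30 fits that left out 1 mouse and lost its call without *Cebpa* fl/fl mouse 4 or 5 of HFCFD8W+T10D or *Cebpa* fl/fl mouse 3 or 5 of HFCFD12W+T10W, with values from -1.71 to -1.28 over the 30 fits. On log2(TPM + 1), a scale that understates low genes, the difference from HFCFD2W was -0.66 (adjusted p = 0.0590 in limma). Between HFCFD8W+T10D and HFCFD2W the effect differed by -0.19 ± 0.45 (adjusted p = 0.841 in edgeR), and 11.2% of genes differed there. *Cebpa* mRNA left in the knockout livers was also highest in HFCFD12W+T10W, and its part in these differences was not tested.

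The genes whose pattern was most like that of *Smpdl3b* were *Lpl*, *Cystm1*, *Ly6e*, *Ugt1a9* and *Tmc5*. Likeness was the root mean square difference of log2 CPM, each gene centred on its mean, over the 30 libraries, and it was 0.735 for *Lpl* and 0.805 for *Tmc5*, beside a median of 1.42 over 12964 genes. Log2 fold changes of *Lpl*, which encodes lipoprotein lipase, were 1.87, 2.16 and 2.28 in the joint fit. Unlike that of *Smpdl3b*, the effect was not smallest in HFCFD12W+T10W for any of these genes.

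*Smpdl3a*, a secreted relative of *Smpdl3b*, did not pass in any experiment in the fits per experiment. Its level in HFCFD8W+T10D was 54.0, 69.0, 59.0, 43.1 and 56.8 CPM in *Cebpa* fl/fl mice and 64.0, 81.8, 84.7, 75.5 and 62.9 CPM in *Cebpa* ΔHep,ERT2 mice, with overlapping groups. The log2 fold change was 0.39 ± 0.13 (SE, adjusted p = 0.0563 in edgeR), and 2 of 10 fits that left out 1 mouse, *Cebpa* fl/fl mouse 2 or knockout mouse 5, brought it past the threshold. The joint fit gave 0.37 (adjusted p = 0.0186 in edgeR). It was -0.04 ± 0.11 in HFCFD2W and 0.21 ± 0.10 in HFCFD12W+T10W (adjusted p = 0.0874 in edgeR). The latter value passed at 0.28 without *Cebpa* fl/fl mouse 4, at 0.29 with upper quartile scaling and at 0.58 on uncentred TPM, whereas centred TPM gave 0.19 and no call.

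*Smpd1*, the lysosomal acid sphingomyelinase, fell in HFCFD12W+T10W from 58.3, 54.9, 51.4, 58.8 and 54.3 CPM to 43.6, 44.7, 51.7, 45.7 and 41.4 CPM. The groups overlap only through knockout mouse 3, and the log2 fold change was -0.29 ± 0.07 (SE, adjusted p = 0.00498 in edgeR). On the deposited TPM values, where the median log2 fold change of all genes was 0.32 beside 0.01 in the edgeR fit, its log2 fold change was 0.07 with an adjusted p of 0.395 in limma, and centred on the library median it was -0.32. It did not pass at -0.14 ± 0.07 in HFCFD2W and 0.03 ± 0.11 in HFCFD8W+T10D.

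*Smpd3*, the plasma membrane neutral sphingomyelinase, rose in HFCFD12W+T10W. It was at 7.20, 6.63, 3.38, 2.21 and 4.58 CPM in *Cebpa* fl/fl mice and at 11.3, 14.4, 17.8, 10.9 and 9.46 CPM in *Cebpa* ΔHep,ERT2 mice, and the groups did not overlap. The log2 fold change was 1.41 ± 0.27 (SE, adjusted p = 0.000869 in edgeR), and all 10 fits that left out 1 mouse passed.

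In HFCFD2W the *Smpd3* values spread widely in knockout mice, 9.46, 13.7, 5.22, 7.03 and 2.17 CPM, around the 7.38 to 9.73 CPM of *Cebpa* fl/fl mice. Neither HFCFD2W (log2 fold change -0.18 ± 0.32) nor HFCFD8W+T10D (-0.18 ± 0.22) passed. The genotype effect in HFCFD12W+T10W was larger than in HFCFD2W by 1.55 ± 0.43 (SE, adjusted p = 0.00754 in edgeR) and larger than in HFCFD8W+T10D by 1.56 ± 0.44 (adjusted p = 0.0210). Both differences passed in 30 of 30 fits that left out 1 mouse. *Smpd3* overlaps *Prmt7* and the long noncoding gene *Gm10629* on the opposite strand. It also overlaps the long noncoding gene *Gm26786* on its own strand, with which RSEM may share reads. The sources used here do not say whether RSEM counted by strand, so reads of genes on opposite strands may not be told apart.

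Markers of other liver cells differed between genotypes most widely in HFCFD12W+T10W. There the 9 stellate cell and fibroblast markers summed to 355 to 455 CPM in *Cebpa* fl/fl and 1424 to 1780 CPM in knockout livers, and 9 of 9 rose. The 7 cholangiocyte markers went from 11.1 to 14.9 CPM up to 65.6 to 101 CPM, with 7 of 7 higher. Among them *Cftr* held at most 3 counts in any *Cebpa* fl/fl library and passed the low-count filter only through the knockout livers. The 11 macrophage markers ran from 342 to 1083 CPM and from 1121 to 1379 CPM, with 7 higher and 2 lower, while 5 of 8 hepatocyte markers fell. Of 7 lymphocyte and leukocyte markers only 4 had enough counts to be tested. All 4 rose, and genes admitted by their rise may be among them. Of 6 endothelial markers 2 fell. Over all genes tested in HFCFD12W+T10W 27.4% rose and 23.8% fell.

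In HFCFD2W the stellate sums were 136 to 265 CPM against 136 to 292 CPM and the cholangiocyte sums 9.47 to 13.6 CPM against 9.01 to 14.4 CPM. The macrophage sums overlapped, with medians of 185 and 285 CPM and 3 of 9 tested markers higher, and 1 hepatocyte marker rose. Over all genes tested in HFCFD2W 8.60% rose and 8.09% fell. In HFCFD8W+T10D 8 of 11 macrophage, 2 of 9 stellate and 3 of 6 cholangiocyte markers rose and 4 of 8 hepatocyte markers fell. Of the lymphocyte and leukocyte markers 1 of 2 tested rose there, and of 6 endothelial markers 1 fell. Over all genes tested in HFCFD8W+T10D 10.3% rose and 6.85% fell. The part of other cell types in the changes of *Smpdl3b*, *Smpd3* and the other members was not tested in any of the 3 experiments.

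**Figure D2:**
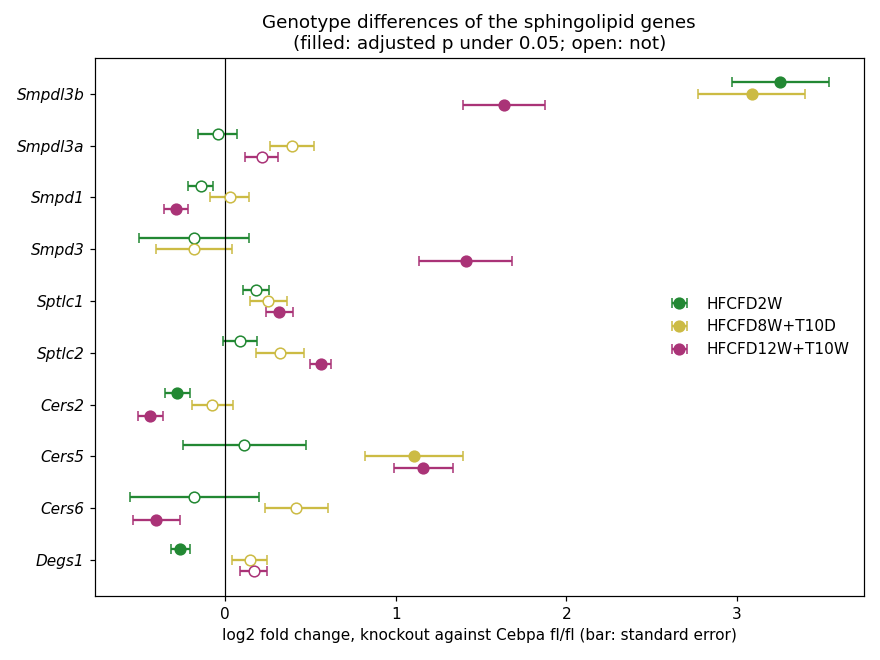
Log2 fold change of each sphingolipid gene, knockout against *Cebpa* fl/fl (x axis), with its standard error, in the 3 experiments (colours). Filled points passed at an adjusted p under 0.05, and *Smpdl3b* is filled in all 3 at 3.25, 3.09 and 1.63. This gene passed the low-count filter in each only through the knockout livers.

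The first step of synthesis is catalysed by serine palmitoyltransferase, whose subunits *Sptlc1* and *Sptlc2* both rose in HFCFD12W+T10W. *Sptlc2* was at 25.5, 27.8, 29, 29.8 and 28.4 CPM in *Cebpa* fl/fl mice and at 42.2, 40.3, 42.5, 41.6 and 40.2 CPM in *Cebpa* ΔHep,ERT2 mice. Its groups lie clearly apart with little spread, and the log2 fold change was 0.56 ± 0.06 (SE, adjusted p = 1.57e-05 in edgeR). *Sptlc1* went from 24.3, 25.2, 25.4, 28.1 and 26.9 CPM to 33.0, 30.9, 35.4, 34.2 and 28.4 CPM, a log2 fold change of 0.32 ± 0.08 (SE, adjusted p = 0.00462 in edgeR), and the groups were separated by a small gap. *Sptlc2* overlaps *Gm26764* and *Gm48806* on the opposite strand.

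Neither subunit passed in the other experiments in the fits per experiment, where log2 fold changes were 0.18 ± 0.08 and 0.25 ± 0.11 for *Sptlc1* and 0.09 ± 0.10 and 0.32 ± 0.14 for *Sptlc2* in HFCFD2W and HFCFD8W+T10D. In the joint fit both passed in HFCFD8W+T10D, at 0.24 for *Sptlc1* and 0.30 for *Sptlc2* (adjusted p = 0.0405 and 0.0302 in edgeR). The effect on *Sptlc2* exceeded that of HFCFD2W in HFCFD12W+T10W by 0.43 ± 0.15 (SE, adjusted p = 0.0312 in edgeR) and passed in 25 of 30 fits that left out 1 mouse, losing its call without *Cebpa* fl/fl mouse 1 of HFCFD12W+T10W or without *Cebpa* fl/fl mouse 3 or 5 or knockout mouse 2 or 6 of HFCFD2W. For *Sptlc1* that difference was 0.10 ± 0.12 (adjusted p = 0.586). *Ormdl3*, which encodes an inhibitor of the enzyme, fell in HFCFD8W+T10D and HFCFD12W+T10W by 0.53 ± 0.13 and 0.91 ± 0.12 on the log2 scale and did not pass in HFCFD2W at -0.11. *Ormdl2*, a paralog, fell by 0.32 ± 0.07 in HFCFD12W+T10W and did not pass in HFCFD2W (-0.13) or HFCFD8W+T10D (-0.16). *Ormdl1*, another paralog, did not pass in any experiment, with -0.05, 0.22 and -0.15. These genes were named after their values were seen.

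Ceramide synthases differ in the acyl chain they prefer. *Cers2*, the main isoform of liver, makes very-long-chain ceramides, whereas *Cers5* and *Cers6* make long-chain, mainly palmitoyl, ceramides. *Cers2* fell in HFCFD2W from 323, 285, 283, 331 and 337 CPM to 248, 270, 266, 249 and 250 CPM, and the groups did not overlap. The log2 fold change was -0.28 ± 0.07 (SE, adjusted p = 0.0205 in edgeR), which rose to 0.0559 without *Cebpa* fl/fl mouse 5 and to 0.0505 without knockout mouse 6. In HFCFD12W+T10W *Cers2* went from 324, 320, 292, 259 and 288 CPM to 210, 219, 219, 229 and 217 CPM, a log2 fold change of -0.44 ± 0.07 (SE, adjusted p = 0.000304 in edgeR).

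*Cers2* did not pass in HFCFD8W+T10D at -0.08 ± 0.12, a value that turned to 0.09 on TPM. The effect in HFCFD12W+T10W was lower than in HFCFD8W+T10D by 0.39 ± 0.13 (difference of -0.39, adjusted p = 0.0453 in edgeR), a call lost in 15 of 30 fits that left out 1 mouse, 6 mice of HFCFD8W+T10D (*Cebpa* fl/fl 3, 4 and 5, knockout 1, 3 and 4) and 9 of HFCFD12W+T10W (all but *Cebpa* fl/fl 4), with values from -0.46 to -0.30. On uncentred TPM the falls of *Cers2* in HFCFD2W and HFCFD12W+T10W were -0.17 and -0.13 and did not pass, and centred on the library median they were -0.27 and -0.52 and passed. *Cers2* overlaps *Setdb1* and an antisense gene on the opposite strand.

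*Cers5* rose in the inducible strain. In HFCFD8W+T10D it was at 1.55, 1.57, 1.90, 1.88 and 1.62 CPM in *Cebpa* fl/fl mice and at 3.19, 6.18, 4.18, 2.19 and 2.55 CPM in *Cebpa* ΔHep,ERT2 mice, and in HFCFD12W+T10W at 2.00, 2.68, 2.99, 2.47 and 2.40 CPM and at 4.37, 5.38, 6.71, 5.08 and 6.56 CPM. The groups did not overlap in either. Log2 fold changes were 1.11 ± 0.29 (SE, adjusted p = 0.0195 in edgeR) and 1.16 ± 0.17 (adjusted p = 0.000132). In HFCFD2W it was 0.11 ± 0.36, but the livers there held only 4 to 18 counts of *Cers5*, which overlaps the antisense gene *Gm17058*. The difference of effects between HFCFD12W+T10W and HFCFD2W, 1.01 ± 0.41, did not pass (adjusted p = 0.0640).

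*Cers6* fell in HFCFD12W+T10W from 24.9, 36.4, 43.8, 32 and 42.9 CPM to 25.7, 30.9, 28.3, 25.6 and 25.8 CPM, with *Cebpa* fl/fl mouse 1 below all knockout mice. The log2 fold change of -0.40 ± 0.14 (SE, adjusted p = 0.0251 in edgeR) lost its call in 5 of 10 fits that left out 1 mouse, those without *Cebpa* fl/fl mouse 3 or 5 or knockout mouse 1, 4 or 5, with a highest adjusted p of 0.0619. The call was also lost with upper quartile scaling (-0.32), in the joint fit (-0.45) and on uncentred TPM (-0.010), whereas centred TPM gave -0.40 and a call. In HFCFD8W+T10D the value was 0.42 ± 0.18 (adjusted p = 0.142), and in HFCFD2W it was -0.18 ± 0.38. The gene overlaps 6 unconfirmed gene models on its own strand, with which reads may be shared.

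*Degs1*, the dihydroceramide desaturase of the last step, fell in HFCFD2W from 56.7, 57.0, 52.1, 58.3 and 59.8 CPM to 47.6, 48.9, 47.2, 45.5 and 47.2 CPM. The groups did not overlap, and the log2 fold change was -0.26 ± 0.06 (SE, adjusted p = 0.00785 in edgeR). On uncentred TPM the value was -0.14 and did not pass (adjusted p = 0.167 in limma), and centred on the library median it was -0.24 and passed. It did not pass at 0.14 ± 0.10 in HFCFD8W+T10D and 0.17 ± 0.08 in HFCFD12W+T10W. In the latter *Degs1* passed at 0.25 with upper quartile scaling (adjusted p = 0.0172 in edgeR) and at 0.53 on uncentred TPM (0.000108 in limma), whereas centred TPM gave 0.14 and no call. Its effect was higher in HFCFD8W+T10D than in HFCFD2W by 0.39 ± 0.11 (SE, adjusted p = 0.0195 in edgeR) and also higher in HFCFD12W+T10W, by 0.39 ± 0.11 over HFCFD2W (adjusted p = 0.00825). *Degs1* was the 1 member whose effect differed between HFCFD8W+T10D and HFCFD2W, a call lost without the low-count filter (adjusted p = 0.0636 in edgeR) and on log2(TPM + 1) (0.0818 in limma).

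Knockout mouse 2 of HFCFD8W+T10D had the highest value of its group for 4 members, *Sptlc2* (43.4 CPM), *Cers5* (6.18 CPM), *Cers6* (32.3 CPM) and *Degs1* (92.6 CPM), and the lowest for *Smpd1* and *Cers2*. Its macrophage markers summed to 2292 CPM against 1068 to 1513 CPM in the other 4 knockout mice, and its hepatocyte sum of 57151 CPM was the lowest of the group. Without it, 2 members rose and none fell, as with it. *Cers5* then had a log2 fold change of 0.82 ± 0.24 (SE, adjusted p = 0.0434 in edgeR), a 1.76-fold rise, and *Smpdl3b* one of 3.00 ± 0.33. The other members named here passed neither with nor without this mouse in the fits per experiment. *Cers6* went from 0.42 to 0.24, *Sptlc2* from 0.32 to 0.21, *Degs1* from 0.14 to 0.057, *Smpd1* from 0.026 to 0.076 and *Cers2* from -0.075 to -0.036.

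Per transcript length, in TPM, *Cers2* was the most abundant of the 10 genes in all 6 groups, at a mean of 167 to 202 TPM, and its range lay above that of the next gene each time. *Degs1* came next by its mean in 5 of the groups, at 30.5 to 62.5 TPM. Its range overlapped that of *Smpdl3a* in *Cebpa* fl/fl livers of HFCFD8W+T10D. In knockout livers of HFCFD8W+T10D, *Smpdl3a* at 52.5 ± 12.5 TPM and *Degs1* at 51.8 ± 15.3 TPM overlapped. The group means of *Smpd1* stayed between 23 and 28.6 TPM.

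At the low end *Smpdl3b* was last in the 3 *Cebpa* fl/fl groups, at 0.438 ± 0.218, 0.718 ± 0.386 and 0.936 ± 0.224 TPM, with ranges that overlapped those of *Cers5*, *Cers5* and *Smpd3*. In the knockout groups it stood at 4.59 ± 1.24, 7.03 ± 2.31 and 3.81 ± 1.04 TPM. That put it seventh, seventh and ninth of the 10 genes, between neighbours whose ranges it overlapped except *Sptlc1* in HFCFD8W+T10D.

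**Figure D3:**
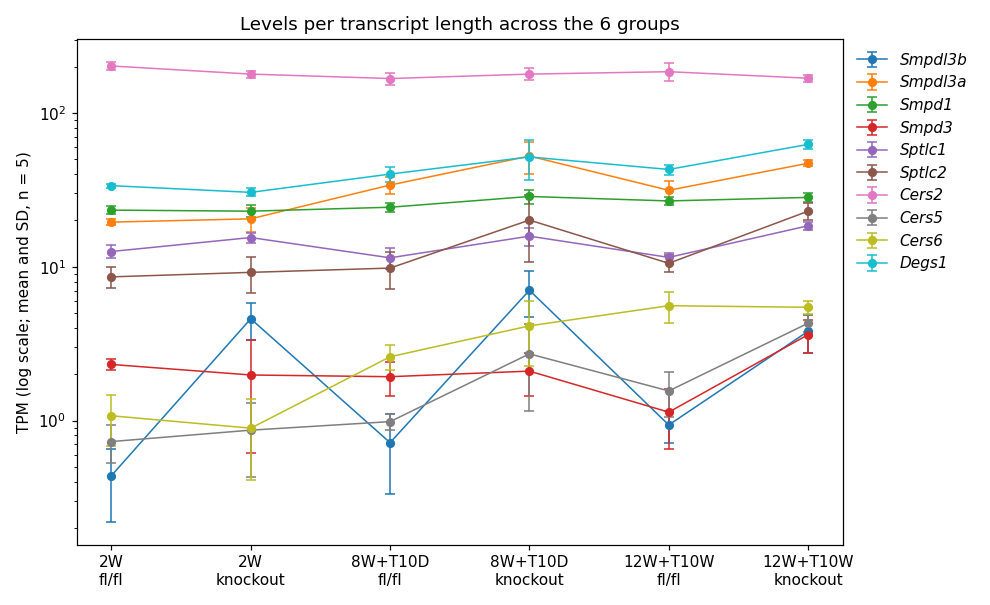
Mean TPM (log scale) with SD (n = 5) of the 10 sphingolipid genes in the 6 groups, each gene in 1 colour with a line to guide the eye. *Cers2* lies above all others at 167 to 202 TPM, and *Smpdl3b* moves between under 1 TPM in *Cebpa* fl/fl and 3.81 to 7.03 TPM in knockout livers.

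The 6 ceramide synthases were compared as shares of their summed TPM. In *Cebpa* fl/fl livers *Cers2* held 98.9% ± 0.339, 97.4% ± 0.669 and 95.8% ± 1.04 in HFCFD2W, HFCFD8W+T10D and HFCFD12W+T10W. In knockout livers its shares in that order were 98.7% ± 0.477, 95.6% ± 1.60 and 93.6% ± 0.577. *Cers5* and *Cers6* together held 0.890% ± 0.295, 2.11% ± 0.448 and 3.74% ± 0.961 in *Cebpa* fl/fl and 0.984% ± 0.446, 3.55% ± 1.39 and 5.42% ± 0.333 in knockout livers. Between genotypes these shares overlapped in HFCFD2W and HFCFD8W+T10D, whereas in HFCFD12W+T10W they ran from 2.32% to 4.82% and from 4.99% to 5.86% and did not. That gap came with *Cers5*, at 0.820% ± 0.296 and 2.39% ± 0.278 there, whereas *Cers6* at 2.92% ± 0.733 and 3.03% ± 0.231 overlapped.

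RSEM also gives a transcript length averaged over isoforms. The genotypes' lengths overlapped for all 10 members in every experiment, against non-overlapping lengths for 1.02%, 0.984% and 1.42% of all genes.

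Among *Cebpa* fl/fl livers alone, *Cers6* was higher with each step to a longer experiment. Its level was 1.07 ± 0.395, 2.6 ± 0.480 and 5.58 ± 1.26 TPM in the order HFCFD2W, HFCFD8W+T10D, HFCFD12W+T10W. In the joint edgeR fit it was 1.22 ± 0.27 higher in HFCFD8W+T10D than in HFCFD2W on the log2 scale (SE, adjusted p = 0.000697) and 0.97 ± 0.24 higher in HFCFD12W+T10W than in HFCFD8W+T10D (adjusted p = 0.00833).

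From HFCFD2W to HFCFD8W+T10D, 3 members were higher and 2 lower in *Cebpa* fl/fl livers, where 43.6% of all genes differed. *Smpdl3a* and *Sptlc2* were higher by 0.57 ± 0.12 and 0.40 ± 0.11 on the log2 scale, and *Cers2* and *Sptlc1* fell by 0.51 ± 0.09 and 0.38 ± 0.09. On log2(TPM + 1) *Sptlc2* at 0.15 and *Sptlc1* at -0.13 lost their calls in limma. From HFCFD8W+T10D to HFCFD12W+T10W *Cers6* alone passed, where 11.4% of all genes differed. *Smpdl3b* differed by 0.45 ± 0.39 and 0.27 ± 0.34 in these comparisons and did not pass.

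Around these 10 genes, 59 others of the pathway were read as 9 lists, and 44, 45 and 49 of them had enough counts in HFCFD2W, HFCFD8W+T10D and HFCFD12W+T10W. Of those, 5 rose and 8 fell in HFCFD2W, 8 rose and 5 fell in HFCFD8W+T10D, and 18 rose and 13 fell in HFCFD12W+T10W. As shares these are 11.4% and 18.2%, 17.8% and 11.1%, and 36.7% and 26.5%, beside the 8.60% and 8.09%, 10.3% and 6.85%, and 27.4% and 23.8% of all genes given above. Their median log2 fold changes were -0.07, 0.03 and 0.01. The 18 that rose in HFCFD12W+T10W include *Sphk1*, *Sgpp2* and *Ugt8a*, which passed the low-count filter there only through the knockout group. The calls of HFCFD2W dropped from 13 to 8 without *Cebpa* fl/fl mouse 1 or knockout mouse 6, and those of HFCFD8W+T10D from 13 to 8 without knockout mouse 2 or *Cebpa* fl/fl mouse 4.

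*Sgms2*, *S1pr1* and *Arsa* fell in all 3 experiments. *S1pr1*, a receptor for sphingosine 1-phosphate abundant on endothelial cells, went from 42.3 ± 3.53 to 26 ± 2.5 CPM, from 48.3 ± 11 to 27.7 ± 5.79 CPM and from 35.1 ± 3.55 to 23.8 ± 2.36 CPM, without overlap in any, and its log2 fold changes were -0.70, -0.80 and -0.56. *Arsa*, the lysosomal arylsulfatase that degrades sulfatide, had log2 fold changes of -0.50, -0.60 and -0.72. *Sgms2*, a sphingomyelin synthase of the plasma membrane, had -0.32, -0.52 and -0.55, and its call in HFCFD8W+T10D (adjusted p = 0.0477 in edgeR) was lost in 8 of 10 fits that left out 1 mouse, the exceptions being those without *Cebpa* fl/fl mouse 2 or knockout mouse 5.

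Of the sphingosine 1-phosphate enzymes, 3 of 4 tested fell in HFCFD2W, where 8.09% of all genes fell. In HFCFD12W+T10W 2 of 6 fell, 33.3% beside 23.8% of all genes, and 2 rose. The 2 that rose, *Sphk1* and *Sgpp2*, passed the low-count filter only through the knockout group, so their share is not compared. In HFCFD8W+T10D 0 of 4 passed in edgeR, 0 in DESeq2 and 0 at an unadjusted p under 0.05. *Sphk1*, which makes this lipid by phosphorylating sphingosine, went in HFCFD12W+T10W from 0.448 ± 0.228 to 3.23 ± 0.477 CPM. Its *Cebpa* fl/fl libraries held 2 to 7 counts and its knockout libraries 25 to 41. It thus passed the low-count filter only through the knockout group, and no p is given. The ratio of summed counts was 7.10, with an exact 95% interval of 4.35 to 12.3 for counting error only. *Sgpp2*, a phosphatase that removes the phosphate again, had 1 to 2 counts per *Cebpa* fl/fl library and 13 to 43 per knockout library. On summed counts the ratio was 10.6, with an exact 95% interval of 5.38 to 23.7 that covers counting error only.

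*Spns2*, the sphingosine 1-phosphate exporter, moved in opposite directions. It fell in HFCFD2W from 22.5 ± 3.71 to 10.5 ± 2.06 CPM and rose in HFCFD12W+T10W from 10.1 ± 3.66 to 20.1 ± 2.07 CPM. The difference of the effects was 2.04 ± 0.27 (SE, adjusted p = 4.23e-06 in edgeR).

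Among ceramide-consuming enzymes, *Acer2*, a Golgi ceramidase, rose in HFCFD2W from 6.58 ± 1.24 to 13.9 ± 2.66 CPM. It did not pass in the other experiments, and its effect in HFCFD8W+T10D was lower than in HFCFD2W by 1.29 ± 0.29 (difference of -1.29, adjusted p = 0.00393 in edgeR). *Cerk*, ceramide kinase, rose in HFCFD12W+T10W from 5.08 ± 1.80 to 14 ± 0.966 CPM, a log2 fold change of 1.45 ± 0.19.

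Of 7 genes of glycosphingolipid synthesis, 3 rose and 2 fell in HFCFD12W+T10W, which is 42.9% and 28.6% beside 27.4% and 23.8% of all genes. Among the rises *Ugt8a* passed the low-count filter only through the knockout group, so the 42.9% includes a gene admitted by its rise. *B4galt6*, a lactosylceramide synthase, rose from 3.37 ± 0.543 to 9.30 ± 3.22 CPM in HFCFD8W+T10D and from 2.85 ± 0.372 to 17 ± 1.16 CPM in HFCFD12W+T10W, a log2 fold change of 2.57 ± 0.12 (SE, adjusted p = 1.82e-08 in edgeR). In HFCFD12W+T10W *Ugt8a*, which makes galactosylceramide, had 1 to 3 counts per *Cebpa* fl/fl library and 28 to 65 per knockout library, a ratio of 17.3 with an exact 95% interval of 9.20 to 36.5 for counting error only. In the other experiments no knockout library held more than 10 counts of *Ugt8a*, and it was not tested.

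*St3gal5*, which makes the ganglioside GM3 from lactosylceramide, fell in HFCFD12W+T10W from 327 ± 106 to 117 ± 25.1 CPM. In HFCFD2W it rose from 79.0 ± 22.3 to 128 ± 31.6 CPM (adjusted p = 0.0313 in edgeR), a call lost in 5 of 10 fits that left out 1 mouse, those without *Cebpa* fl/fl mouse 1, 2 or 5 or knockout mouse 5 or 6. The effects differed by -2.21 ± 0.36 (adjusted p = 4.54e-05). Of 11 genes of lysosomal degradation, 1, 4 and 7 rose from the shortest experiment to the longest, which is 9.09%, 36.4% and 63.6% beside 8.60%, 10.3% and 27.4% of all genes, and *Arsa* alone fell in each. Of the calls that rose, only 0, 1 and 5 passed in all 10 fits that left out 1 mouse. *Glb1*, *Gla* and *Psap*, named after their values were seen, passed in 2, 3 and 3 of 10 such fits in HFCFD8W+T10D and *Neu1* in 2 of 10 in HFCFD2W. Macrophage markers rose as well, 3 of 9 tested, 8 of 11 and 7 of 11 in that order, while 2 of 11 fell in HFCFD12W+T10W. The part of macrophages in these counts and in those of the other pathway genes was not tested.

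**Figure D4:**
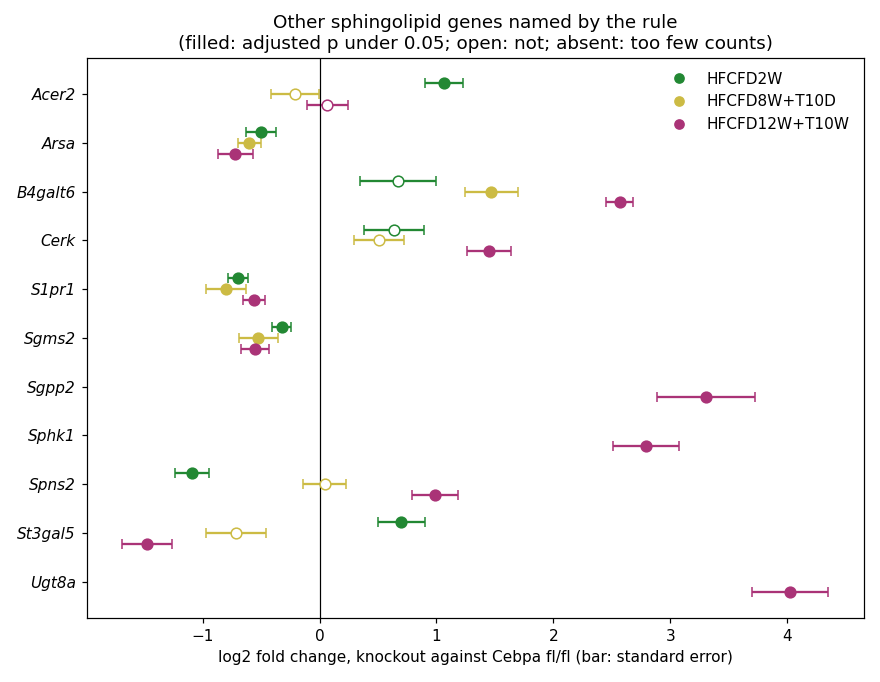
Log2 fold change, knockout against *Cebpa* fl/fl (x axis), with its standard error for 11 other sphingolipid genes in the 3 experiments (colours). Filled points passed at an adjusted p under 0.05, and genes with too few counts in an experiment have no point there. *S1pr1*, *Sgms2* and *Arsa* are filled and below 0 in all 3, whereas *Ugt8a*, *Sgpp2* and *Sphk1* were tested only in HFCFD12W+T10W. The latter genes passed the low-count filter there only through the knockout group.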

How the data were processed

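The authors prepared poly(A) libraries from liver RNA with the TruSeq Stranded mRNA kit. The submitters' processing notes name Trimmomatic 0.36, STAR 2.5.1, Picard 1.84, RSEM 1.2.22, DESeq2 and the build mm10. The deposited expected counts are RSEM estimates per gene, not normalized, which share reads among overlapping or similar genes. The deposited TPM values are scaled by the authors to each library's total per length, and the RSEM length column (other) was deposited beside them. Tables of TMM-scaled counts and RPKM were not used. Expected counts were rounded. In R 4.3.3 with edgeR 4.0.16, filterByExpr by genotype left 11068, 11990 and 12463 genes in the 3 experiments and 12964 in a fit of all libraries. TMM scaling and the quasi-likelihood F test followed, with Benjamini-Hochberg adjustment. Log2 CPM for single values used a prior count of 2. Permutation tests enumerate every arrangement of the 10 mice. Gene positions are from GENCODE M21.

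Named genes were the members, *Cebpa*, other listed pathway genes that passed with a fold change over 2 in an experiment or passed in the same direction in all 3, and the 5 genes most like *Smpdl3b*. *Ormdl1*, *Ormdl2*, *Ormdl3*, *Glb1*, *Gla*, *Psap* and *Neu1* were added outside this rule after their values were seen. The 10 members and the lists were chosen with earlier results of these data known. Mice count as replicates by the labels, and no 2 libraries of a group agreed within counting noise (chi-square per degree of freedom of 8.07 or more over 60 pairs). The depth sets the precision: for *Sphk1*, *Sgpp2* and *Ugt8a*, with few counts in *Cebpa* fl/fl livers, a ratio of summed counts is given with its counting interval. Alternatives were no low-count filter, DESeq2 1.42.0, upper quartile scaling, robust quasi-likelihood, a replicate block, the joint fit, limma 3.58.1 on log2(TPM + 1) and log2(TPM + 0.1), stricter thresholds and each mouse left out. A fit on TPM centred on the library median was chosen after seeing the data.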

Additional observations from a re-analysis of the deposited data

Results flagged for a closer look

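Genotype effects of 5 members differed between experiments in the interaction test of the joint edgeR fit, which is what brought them here. By comparison these were 1, 3 and 4 of the 10 members for HFCFD8W+T10D against HFCFD2W, HFCFD12W+T10W against HFCFD8W+T10D, and HFCFD12W+T10W against HFCFD2W, beside 11.2%, 10.5% and 30.7% of all genes. For *Smpdl3b* the log2 effect in HFCFD12W+T10W differed by -1.67 from that in HFCFD2W and by -1.48 from that in HFCFD8W+T10D. For *Smpd3* the same differences were 1.55 and 1.56. *Cers2* differed by -0.39 between HFCFD12W+T10W and HFCFD8W+T10D, and *Sptlc2* by 0.43 between HFCFD12W+T10W and HFCFD2W. *Degs1* differed by 0.39 between HFCFD8W+T10D and HFCFD2W and by 0.39 between HFCFD12W+T10W and HFCFD2W. Feeding time, time on tamoxifen and cohort differ between all experiments, and the Cre line between HFCFD2W and the others, and these cannot be told apart. In the 60 sets of 5 mice (10 members in 6 groups) 0 had a mouse apart from the others by Dixon's criterion on log2 CPM.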

How the results depend on the processing

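*Smpdl3b* was higher with an adjusted p under 0.05 in all 3 experiments under every setting run. Its mean log2 CPM difference lay between 2.84 and 3.12, 2.77 and 3.12, and 1.41 and 1.65 with 1 mouse left out. The members called in HFCFD2W went from 3 to 1 with the replicate block, on TPM with either pseudocount and with a fold over 2, and to 2 to 3 with 1 mouse left out. Calls over all 11068 genes tested there went from 952 higher and 895 lower to 374 and 350 with the block. On log2(TPM + 1) they were 1177 and 374. In HFCFD8W+T10D the 2 calls went to 5 in the joint fit and to 1 at an adjusted p under 0.01, and to 2 to 3 with 1 mouse left out. Over all genes there, 1231 higher and 821 lower of 11990 became 1976 and 1541 of 12964 in the joint fit. In HFCFD12W+T10W the 8 calls went to 3 with a fold over 2 and to 7 to 9 with 1 mouse left out. The other pathway genes called in HFCFD2W (13) were 3 with the block, 8 on TPM of any kind, 2 with a fold over 2, 3 at an adjusted p under 0.01, and 8 to 14 with 1 mouse left out. In HFCFD8W+T10D (13) they were 7 on TPM, 1 with a fold over 2, 4 at an adjusted p under 0.01 and 8 to 14 with 1 mouse left out, and in HFCFD12W+T10W (31) they were 6 with a fold over 2 and 28 to 32 with 1 mouse left out. Effects that differed between HFCFD8W+T10D and HFCFD2W (1 member) were 0 without the low-count filter, on TPM and with the block, and 1 to 2 with 1 mouse left out. Between HFCFD12W+T10W and HFCFD8W+T10D the 3 went to 1 with the block and to 1 to 4 with 1 mouse left out, and between HFCFD12W+T10W and HFCFD2W the 4 went to 3 to 5. In *Cebpa* fl/fl livers the 5 members that differed between HFCFD8W+T10D and HFCFD2W went to 3 on TPM and to 5 to 6 with 1 mouse left out, and the 1 between HFCFD12W+T10W and HFCFD8W+T10D went to 1 to 2.

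Signs that turned belonged to values that had not passed, apart from *Smpd1* in HFCFD12W+T10W, at 0.074 and 0.076 on TPM with pseudocounts of 1 and 0.1. *Smpdl3a* in HFCFD2W turned to 0.053 and 0.055 on TPM, *Smpd3* to 0.037 with the block in HFCFD2W and to 0.067 and 0.085 on TPM in HFCFD8W+T10D, and *Cers2* to 0.095 and 0.095 on TPM in HFCFD8W+T10D. Centred TPM turned *Sptlc2* (-0.031) and *Cers5* (-0.014) in HFCFD2W and *Spns2* (-0.032) in HFCFD8W+T10D. With 1 mouse left out, HFCFD2W values crossed 0 for *Smpdl3a* (-0.11 to 0.026), *Smpd3* (-0.52 to 0.048), *Cers5* (-0.090 to 0.36) and *Cers6* (-0.52 to 0.041). So did HFCFD8W+T10D values of *Smpd1* (-0.028 to 0.092) and *Spns2* (-0.18 to 0.13) and the HFCFD12W+T10W value of *Acer2* (-0.062 to 0.21).

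On uncentred TPM the median log2 fold change of all genes was 0.10, 0.17 and 0.32, beside 0.01 in each edgeR fit, and this scale moved the share of higher among all calls from 51.5% to 75.9%, from 60.0% to 81.1% and from 53.5% to 87.8%. Centred, the last was 41.1%. *Smpdl3a* and *Degs1* passed in HFCFD12W+T10W on uncentred TPM and with upper quartile scaling, and *Cers6* lost its call there under both. Among differences between experiments, those of *Smpd3* passed under every setting run. With the replicate block the edgeR calls of *Cers2* (adjusted p = 0.166), *Degs1* (0.0982), *Arsa* (0.0573), *Sgms2* (0.0786) and *St3gal5* (0.141) in HFCFD2W were lost, as were the differences of *Degs1* between HFCFD8W+T10D and HFCFD2W (0.0696) and of *Smpdl3b* (0.0542) and *Cers2* (0.102) between HFCFD12W+T10W and HFCFD8W+T10D, and *Smpdl3a* in HFCFD8W+T10D was gained (0.0453). The replicate numbers did not pair mice: same-number correlations over 2000 genes lay between -0.23 and 0.07, -0.10 and 0.15, and -0.09 and 0.16. The cause of these changes was not tested. At this depth *Smpdl3b* and *Cers5* in *Cebpa* fl/fl livers rest on few counts.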
